A study of Mus musculus with 6 samples.

Results

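The genes described here are 49 mouse genes of DNA replication, measured by RNA sequencing in embryonic lenses that lacked β1-integrin and in wild-type lenses. They were chosen by gene symbol for their known roles in replication, with earlier results of these data known. They are 49 of the 41128 features listed for each library. All 49 were found in the gene annotation as protein-coding genes, on 15 chromosomes. By role, 15 license origins, 8 act in origin firing, 9 are subunits of the replicative polymerases and primase, 11 belong to the clamp, its loader, the single-strand binding complex or lagging-strand processing, and 5 supply nucleotides. The remaining member is Uhrf1, which recruits the maintenance DNA methyltransferase to newly copied DNA.

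The conditional knockout (cKO) group carried Itgb1 alleles flanked by loxP sites on both chromosomes together with the MLR10 Cre transgene, on a mixed strain background. The wild-type (WT) group was of the inbred strain C57Bl/6, with no Cre transgene or floxed allele named in its labels. All lenses were taken at E15.5, and each group had 3 libraries described as biological replicates. Each cKO library came from a pool of 30 lenses and each WT library from a pool of 75 lenses, so the spread between libraries is the spread between pools. The labels of the WT libraries say that they are repeat records of samples from an earlier series, and no cKO library carries that remark. Genotype, strain background, Cre, pool size, sequencing depth and the source of the libraries therefore cannot be told apart in any difference below.

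DNA replication is prepared when the origin recognition complex (ORC), Cdc6 and Cdt1 load the MCM2-7 helicase onto origins, a step that geminin (Gmnn) blocks by binding Cdt1. In S phase the kinase of Cdc7 and Dbf4, with Cdc45, GINS and Mcm10, turns the loaded helicase into an active one. Polymerase alpha with primase starts each strand, polymerases delta and epsilon extend it on the PCNA clamp, and ribonucleotide reductase and thymidylate synthase supply the building blocks. In the lens, cells divide in the anterior epithelium and leave the cell cycle as they become fiber cells, and E2F transcription factors are known to drive many replication genes in dividing cells.

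The deposited values are CPM, the usual scale in which the reads of a gene are divided by the total reads of its library. The cKO libraries held 20036554, 20214477 and 28095318 reads, against 11531139, 11407157 and 10023049 reads in the WT libraries. A single read counted for 0.0356 to 0.0499 CPM in cKO libraries and for 0.0867 to 0.0998 CPM in WT libraries, and members near 1 CPM are known less precisely, most of all in WT. Itgb1, the targeted gene, averaged 258 ± 19.8 CPM in cKO lenses and 425 ± 23.0 CPM in WT lenses (SD, n = 3 each; log2 fold change -0.72, SE 0.08, limma adjusted p = 1.63e-05). The cKO libraries kept transcripts of Itgb1, at 236 to 275 CPM against 402 to 448 CPM in WT libraries, and gene-level values do not show whether these transcripts held the floxed exon. Lens genes dominated all 6 libraries: the 10 fiber markers summed to 185101 to 209820 CPM in cKO and 195439 to 209710 CPM in WT, with Sox1 listed at 0 throughout, and the 7 epithelial markers to 3963 to 4588 CPM in cKO and 3863 to 4648 CPM in WT, with Sox2 listed at 0. Cryab gave most of the epithelial sum, averaging 3439 CPM in cKO and 3363 CPM in WT. That sum therefore says little of the other epithelial markers. Likewise Cryaa gave most of the fiber sum, averaging 132558 CPM in cKO and 140102 CPM in WT. The fiber sum thus says little of the other fiber markers.

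Each gene was tested with limma on log2(CPM + 1), where genes had at least 1 CPM in at least 3 libraries, with Benjamini-Hochberg adjustment over all 11941 genes tested and a call at an adjusted p under 0.05. Fold changes are cKO over WT on that log2(CPM + 1) scale, where the added 1 shrinks the change of genes with few reads. Of the 49 members, 48 passed the filter. The exception was Orc1, the ORC subunit whose human counterpart is degraded in each S phase, with 0.699, 0.594 and 0.427 CPM in cKO libraries against 1.21, 0.877 and 0.599 CPM in WT libraries. Its groups overlapped between 0.599 and 0.699 CPM, and the gene is left out of the counts of calls.

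Replication genes were mostly lower in the cKO lenses. Of the 48 members tested, 25 fell and 4 rose, and 19 did not pass the test. Among all 11941 genes tested, 15.9% were called lower and 20.9% were called higher. All 3 cKO libraries lay below all 3 WT libraries for 25 members, against 21.2% of all genes tested, and above them for 5 members, against 26.9% of all genes tested. The median log2 fold change was -0.29 over the members and 0.03 over all genes tested, and 40 of the 48 members had a value below 0. Single values ran between -1.15 for Pold1 and 0.70 for Rpa3. Summed over the 49 members, cKO libraries held 1128, 1299 and 1139 CPM, against 1511, 1417 and 1505 CPM in WT libraries, so the cKO mean was 80.4% of the WT mean. In whole lenses, fewer dividing cells and less replication RNA in each dividing cell cannot be told apart.

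**Figure D1:**
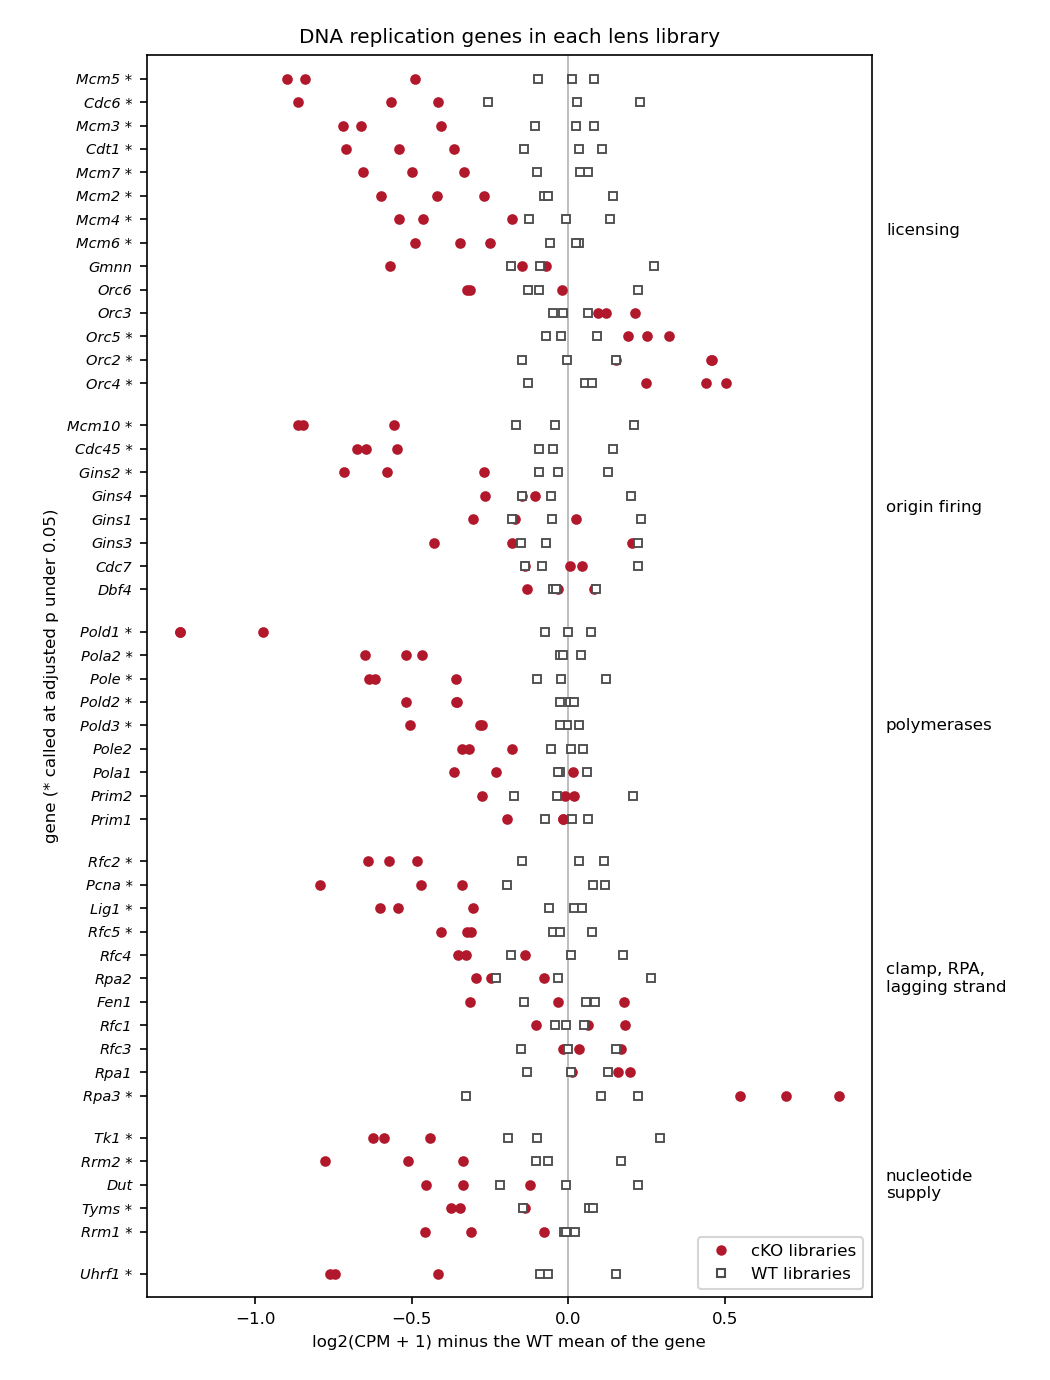
Each of the 48 tested replication genes is a line, grouped by role, with 1 point per library (filled circles cKO, open squares WT). The x axis is log2(CPM + 1) minus the mean of the 3 WT libraries, and asterisks mark genes called at an adjusted p under 0.05. Most filled circles lie left of the open squares, those of Pold1 farthest, while those of Rpa3, Orc2, Orc4 and Orc5 lie to the right.

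**Figure D2:**
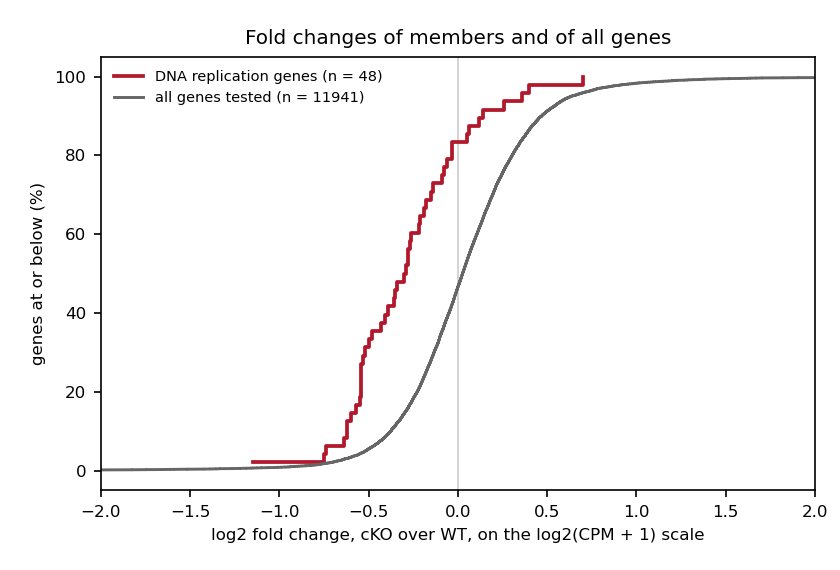
Cumulative share of genes (y axis, percent) at or below each log2 fold change, cKO over WT (x axis), for the 48 tested replication genes and for all 11941 genes tested. The line of the replication genes lies left of the line of all genes, with medians of -0.29 and 0.03.

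Because E2F factors bind near the starts of many replication genes, the promoter windows of the members were searched for the letters of their known sites. RefSeq windows of 300 bases (GRCm38.p6), 250 before and 50 after each start, were given for 41 of the 49 members. The letters searched were TTTCCCGC, TTTGGCGC, TTTCGCGC and TTTGCCGC, on both strands, and a gene counted once if any of its windows held a match. Such letters stood in the windows of 16 of 41 members (39%), of 428 of 9025 tested genes with a window (4.74%) and of 704 of 27025 genes in the RefSeq table (2.6%). By call, they were found for 10 of 21 lower members, 0 of 4 higher members and 5 of 15 members that were not called. Those 5 were Orc3, Gins3, Pola1, Pole2 and Rfc3, whose stretches are not shown. A link between the letters and the direction of the calls was not tested. The sequences below are those of the lower members with a match, shown because they let the shared letters be read in place. Each is 30 bases, 5′ to 3′ in the direction of the gene, with the matched letters in capitals; where a window held several matches, the first in the direction of the gene is shown.

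Mcm3, chr1:20820275-20820304, minus strand: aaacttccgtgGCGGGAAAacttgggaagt
Mcm5, chr8:75109345-75109374, plus strand: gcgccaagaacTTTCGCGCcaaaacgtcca
Mcm7, chr5:138172030-138172059, minus strand: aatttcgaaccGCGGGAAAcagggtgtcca
Cdc6, chr11:98908002-98908031, plus strand: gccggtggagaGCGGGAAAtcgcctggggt
Cdt1, chr8:122568035-122568064, plus strand: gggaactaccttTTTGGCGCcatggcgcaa
Pold1, chr7:44548766-44548795, minus strand: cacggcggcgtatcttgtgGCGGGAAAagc
Pold3, chr7:100121467-100121496, minus strand: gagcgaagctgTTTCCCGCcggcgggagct
Lig1, chr7:13278841-13278870, plus strand: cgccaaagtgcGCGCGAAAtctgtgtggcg
Uhrf1, chr17:56304117-56304146, plus strand: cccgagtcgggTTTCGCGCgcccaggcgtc

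The tenth lower member with a match was Mcm6, whose window held 3 matches, the first 2 of which overlap. Its 200 bases before the start are shown with the matches in capitals, followed by the same stretch of Rpa3, the member with the largest rise, which held none of the letters.

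Mcm6, chr1:128359706-128359905, minus strand: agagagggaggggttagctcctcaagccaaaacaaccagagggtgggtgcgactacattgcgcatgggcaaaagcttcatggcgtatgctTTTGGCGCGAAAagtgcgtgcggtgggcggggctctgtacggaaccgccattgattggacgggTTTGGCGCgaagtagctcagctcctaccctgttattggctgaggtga
Rpa3, chr6:8259142-8259341, minus strand: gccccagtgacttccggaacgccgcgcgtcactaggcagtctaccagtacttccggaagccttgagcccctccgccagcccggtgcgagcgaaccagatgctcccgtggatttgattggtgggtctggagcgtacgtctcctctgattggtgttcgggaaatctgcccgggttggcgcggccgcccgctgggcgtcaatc

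In all, the member windows held 22 matches, 13 of them before the start. Of MCM2-7, 4 of the 5 genes with a window held a match, the exception being Mcm2. Of the 6 ORC genes, Orc1 and Orc3 held one. The CCAAT letters of another common promoter element stood in 24 of 41 member windows (58.5%), against 43.3% of tested genes with a window. The GC box letters GGGCGG stood in 32 of 41 (78%, against 71%) and the letters TTTGAA of the cell cycle homology region in 7 of 41 (17.1%, against 13.8%), each on both strands. A match is a run of letters and not a measured binding site, and no binding was measured in these lenses.

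The MCM2-7 helicase, which unwinds DNA ahead of the fork, was lower in cKO lenses in every one of its 6 subunits (15.9% lower over all genes tested). Mcm5 had 29.1, 39.0 and 30.3 CPM in cKO libraries, against 55.6, 51.5 and 58.4 CPM in WT libraries. The groups did not overlap, and Mcm5 stood at 59.5% of its WT mean (log2 fold change -0.74, SE 0.11, limma adjusted p = 1.78e-04). Mcm3 had 35.7, 44.6 and 37.2 CPM in cKO libraries, against 63.0, 55.1 and 60.5 CPM in WT libraries. It too was below WT in every cKO library (log2 fold change -0.60, SE 0.09, limma adjusted p = 3.94e-04). Mcm7 had 50.7, 63.6 and 56.6 CPM in cKO libraries, against 84.0, 74.9 and 82.5 CPM in WT libraries, a log2 fold change of -0.50 (SE 0.09, limma adjusted p = 0.00106). Mcm2, the most abundant member per length, had 88.2, 111 and 100 CPM in cKO libraries, against 127, 128 and 148 CPM in WT libraries, with a log2 fold change of -0.43 (SE 0.09, limma adjusted p = 0.00312). Neither gene's groups overlapped. Mcm4 and Mcm6 fell to 75.9% and 77.6% of their WT means (limma adjusted p = 0.00922 and 0.00431), again with no overlap. Without cKO replicate 3 the call of Mcm4 was lost, at a limma adjusted p of 0.0557.

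In RPKM, which scales reads to gene length as well as library size, Mcm2 averaged 29.6 ± 3.31 in cKO and 39.8 ± 3.47 in WT (SD, n = 3 each), above each other helicase subunit, which lay between 9.59 and 12.9 RPKM in cKO and between 12.9 and 18.2 RPKM in WT. The 6 subunits summed to 75.3, 94.2 and 81.5 RPKM in cKO libraries, against 118, 110 and 125 RPKM in WT libraries. The subunits did not fall by the same share. Mcm5 made up 10.9% to 12.1% of the helicase RPKM in cKO libraries and 13.6% to 13.8% in WT libraries, and Mcm6 made up 11.4% to 12.4% in cKO libraries and 10.5% to 11.2% in WT libraries. These shares are described without a test.

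The origin recognition complex, on which the helicase is loaded, did not share this direction. Of its 5 subunits tested none was called lower and 3 were called higher, with a median log2 fold change of 0.26. The shares over all genes tested were 15.9% lower and 20.9% higher. Orc4 had 39.5, 32.9 and 37.7 CPM in cKO libraries, against 28.6, 29.1 and 25.1 CPM in WT libraries, and its groups did not overlap (log2 fold change 0.40, SE 0.09, limma adjusted p = 0.0052). Orc2 had 18.7, 23.4 and 23.3 CPM in cKO libraries, against 15, 16.7 and 18.7 CPM in WT libraries. Its lowest cKO library and its highest WT library thus met within rounding (log2 fold change 0.36, SE 0.11, limma adjusted p = 0.0225). Orc5 had 22.2, 21.1 and 20.2 CPM in cKO libraries, against 16.7, 18.8 and 17.3 CPM in WT libraries, a log2 fold change of 0.26 (SE 0.09, limma adjusted p = 0.0399). Orc3 also stood above WT in every cKO library but did not pass the test (log2 fold change 0.14, limma adjusted p = 0.163), and the groups of Orc6 overlapped (log2 fold change -0.22, limma adjusted p = 0.175). As 29.8% of the exonic bases of Orc2 lie under exons of Nif3l1 on the opposite strand, and the library kit does not mark strand, reads there cannot be assigned to either gene.

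The 3 higher calls in ORC did not hold once each library was corrected for a trend with GC content and gene length. After that correction the log2 fold changes were 0.07 for Orc4 (limma adjusted p = 0.608), 0.24 for Orc2 (limma adjusted p = 0.0552) and -0.05 for Orc5 (limma adjusted p = 0.696), and the median of the 5 subunits was -0.05. Orc6 was called lower in that fit (log2 fold change -0.36, limma adjusted p = 0.0151), so ORC then held 1 lower call and 0 higher calls among its 5 tested subunits. The same correction left all 6 subunits of MCM2-7 called lower, with a median log2 fold change of -0.46 both with and without it. Orc5 was not called either with trimmed-mean (TMM) or median-of-ratios (RLE) scaling, and Orc2 was not called without cKO replicate 2, cKO replicate 3, WT replicate 1 or WT replicate 2 (limma adjusted p = 0.0637 to 0.101). Thinning reads to the shallowest library also ended the call of Orc2 (limma adjusted p = 0.0583). On recovered reads Orc5 was not called by edgeR, DESeq2 or limma-voom (adjusted p = 0.0645, 0.138 and 0.0741). Nor was it called without the filter on low values (limma adjusted p = 0.0608). Leaving out any of the 3 cKO libraries, WT replicate 1 or WT replicate 3 also ended the call of Orc5 (limma adjusted p = 0.0746 to 0.112). The ratio of the mean MCM2-7 level to the mean ORC level, in RPKM, was 2.16, 2.61 and 2.37 in cKO libraries, against 3.48, 3.46 and 4.04 in WT libraries. The values of the groups did not overlap. These RPKM values were as deposited, without the GC correction, and the part of the GC trend in the ratio was not tested.

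**Figure D3:**
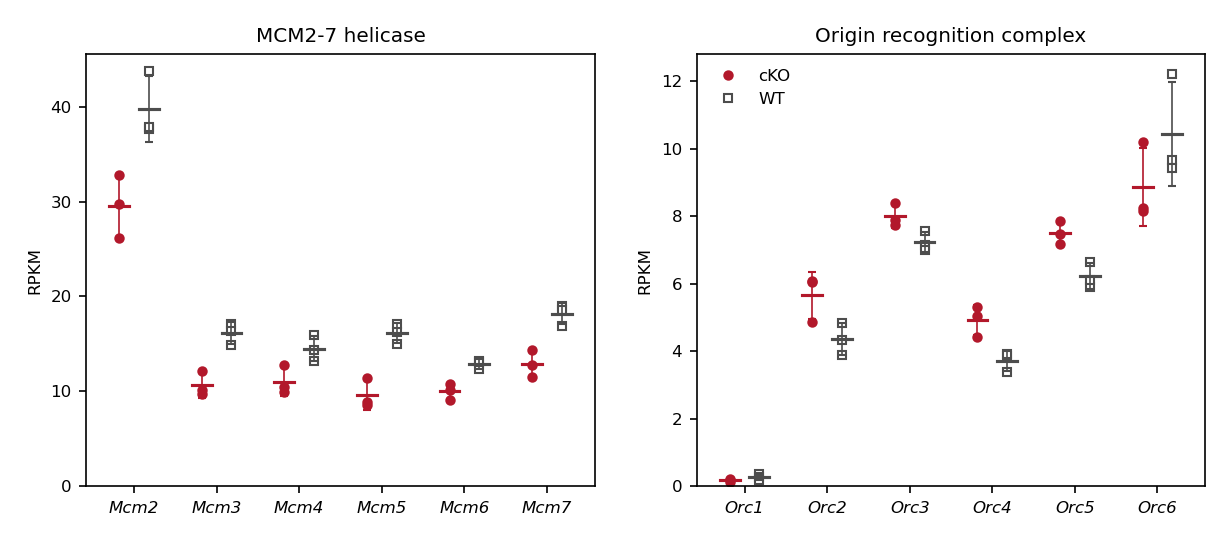
RPKM of the 6 MCM2-7 subunits (left panel) and the 6 ORC subunits (right panel) in each library, with cKO filled circles left of WT open squares for each gene. Horizontal bars are means and whiskers are SD (n = 3 each). Every MCM subunit is lower in cKO, whereas Orc2 to Orc5 are higher in cKO as deposited and no ORC call held after correction for GC content and length.

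Of the factors that load the helicase, Cdc6, an ATPase that joins ORC, and Cdt1, which brings the helicase to it, both fell. Cdc6 lay between 4.77 and 6.88 CPM over the cKO libraries and between 7.80 and 11.3 CPM over the WT libraries (log2 fold change -0.62, SE 0.15, limma adjusted p = 0.00604). Cdt1 lay between 1.15 and 1.73 CPM over the cKO libraries and between 2.19 and 2.79 CPM over the WT libraries (log2 fold change -0.54, SE 0.15, limma adjusted p = 0.013). The counts of Cdt1 were low, and its call was lost when reads were thinned to the shallowest library or when cKO replicate 1 was left out (limma adjusted p = 0.111 and 0.0549). Gmnn, the inhibitor of Cdt1, had overlapping groups of 8.47 to 12.4 CPM in cKO and 11.4 to 16.0 CPM in WT (log2 fold change -0.26, limma adjusted p = 0.192). The ratio of Cdt1 to Gmnn in RPKM was 0.0655 to 0.112 in cKO and 0.109 to 0.164 in WT, with overlap between the groups.

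Of the 8 origin firing genes 3 fell, Mcm10, Cdc45 and Gins2, and none rose (15.9% lower and 20.9% higher over all genes tested). Mcm10, which binds the activated helicase, had 9.53, 11.9 and 9.43 CPM in cKO libraries, against 20.9, 15.9 and 17.4 CPM in WT libraries (log2 fold change -0.75, SE 0.12, limma adjusted p = 4.70e-04). Cdc45, a subunit of the active helicase, had 8.43, 7.62 and 7.79 CPM in cKO libraries, against 14.2, 11.9 and 12.3 CPM in WT libraries (log2 fold change -0.62, SE 0.11, limma adjusted p = 7.64e-04). Both genes were lower in every cKO library. Gins2 had 1.30, 2.13 and 1.53 CPM in cKO libraries, against 3.12, 2.54 and 2.69 CPM in WT libraries (log2 fold change -0.52, SE 0.15, limma adjusted p = 0.0175). Its exonic bases lie to 67.3% under exons of Gse1 on the opposite strand, so its reads are uncertain. Its call was lost without cKO replicate 1, cKO replicate 3 or WT replicate 1 (limma adjusted p = 0.0562 to 0.072) and with thinned reads (limma adjusted p = 0.0723). The other GINS subunits, Gins1, Gins3 and Gins4, had log2 fold changes of -0.15, -0.14 and -0.18, and none passed the test.

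The kinase genes Cdc7 and Dbf4 had the log2 fold changes nearest to 0 of all members, -0.03 each (with 95% intervals in log2 units). Cdc7 had 13.8, 14.2 and 12.4 CPM in cKO libraries, against 16.2, 12.9 and 12.4 CPM in WT libraries, and its interval ran from -0.27 to 0.22. Dbf4, the activating subunit, had 18.5, 20.1 and 17.2 CPM in cKO libraries, against 20.2, 18.3 and 18.4 CPM in WT libraries, and its interval ran from -0.23 to 0.18. The groups of both genes overlapped. With the GC and length correction Dbf4 was called lower, at a log2 fold change of -0.29 (limma adjusted p = 0.02).

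The replicative polymerases held the member with the largest change. Pold1, the catalytic subunit of polymerase delta (chr7:44532746-44548849, minus strand, GRCm38), had 15.3, 18.6 and 15.3 CPM in cKO libraries, against 37.5, 35.6 and 39.5 CPM in WT libraries. The cKO mean was 43.7% of the WT mean, with a wide gap between the groups (log2 fold change -1.15, SE 0.10, limma adjusted p = 1.77e-06). Over the 18 alternative analyses its log2 fold change lay between -1.24 and -1.07. Pold2, an accessory subunit, fell less, with 33.7, 37.8 and 37.7 CPM in cKO libraries, against 47.8, 48.9 and 49.3 CPM in WT libraries (log2 fold change -0.41, SE 0.08, limma adjusted p = 0.00151). Pold3, another accessory subunit, stood at 77.6% of its WT mean (log2 fold change -0.35, limma adjusted p = 0.00918), and with cKO replicate 3 left out it missed the threshold (limma adjusted p = 0.0656). Per length, the ratio of Pold1 to Pold2 was 0.159 to 0.191 in cKO libraries and 0.284 to 0.313 in WT libraries, and that of Pold1 to Pold3 was 0.638 to 0.77 in cKO libraries and 1.18 to 1.37 in WT libraries. All 3 polymerase delta members were thus called lower (15.9% lower over all genes tested), and Pold1 was lower relative to Pold2 and Pold3 as well.

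Pole, the catalytic subunit of polymerase epsilon, had 14.1, 17.3 and 14.3 CPM in cKO libraries, against 20.9, 22.1 and 24.5 CPM in WT libraries (log2 fold change -0.54, SE 0.10, limma adjusted p = 0.00161). Its accessory subunit Pole2 lay below WT in every cKO library without passing the test (log2 fold change -0.28, limma adjusted p = 0.103), and passed it with the GC and length correction (-0.43, limma adjusted p = 0.0129). The ratio of Pold1 to Pole in RPKM was 2.11 to 2.14 in cKO libraries and 3.18 to 3.54 in WT libraries. In the polymerase alpha and primase complex only the regulatory subunit Pola2 was called, with 9.38, 9.75 and 8.47 CPM in cKO libraries, against 13.6, 13.7 and 14.3 CPM in WT libraries (log2 fold change -0.54, SE 0.10, limma adjusted p = 0.00116). The catalytic subunit Pola1 and the primase subunits Prim1 and Prim2 had log2 fold changes of -0.19, -0.08 and -0.09, with overlapping groups. Pola1 was called lower with the GC and length correction (log2 fold change -0.40, limma adjusted p = 0.00155) and without cKO replicate 2 (-0.30, limma adjusted p = 0.0345). Within this complex Pola2 made up 29.3% to 32.6% of the RPKM in cKO libraries and 36.3% to 39.2% in WT libraries.

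At the clamp and on the lagging strand, 4 of 11 genes fell, 1 rose and 6 were not called (15.9% lower and 20.9% higher over all genes tested). Rfc2, a subunit of the clamp loader RFC, had 31.9, 34 and 30.4 CPM in cKO libraries, against 52, 43.2 and 49.1 CPM in WT libraries (log2 fold change -0.57, SE 0.09, limma adjusted p = 3.65e-04). Lig1, the ligase that joins Okazaki fragments, had 35.2, 43.5 and 36.7 CPM in cKO libraries, against 54.7, 51.6 and 55.6 CPM in WT libraries (log2 fold change -0.48, SE 0.09, limma adjusted p = 0.00117). Pcna, the sliding clamp, had 26.4, 29.0 and 20.9 CPM in cKO libraries, against 39.1, 32.1 and 40.1 CPM in WT libraries (log2 fold change -0.53, SE 0.12, limma adjusted p = 0.00416). None of these groups overlapped, and all 3 calls held in every alternative analysis that tested the gene. Rfc5 had 9.38, 10.1 and 10 CPM in cKO libraries, against 12.3, 13.5 and 12.5 CPM in WT libraries (log2 fold change -0.34, SE 0.10, limma adjusted p = 0.0159), but it was not called when cKO replicate 1 or WT replicate 2 was left out (limma adjusted p = 0.0509 and 0.0678). The other RFC subunits, Rfc1, Rfc3 and Rfc4, had log2 fold changes of 0.05, 0.06 and -0.27 and were not called. Rfc4 was called lower with the GC and length correction (-0.47, limma adjusted p = 0.00401) and without WT replicate 3 (-0.36, limma adjusted p = 0.0373). Rfc2 therefore made up less of the RFC total per length in cKO, at 44.2% to 46.3% of the RPKM against 51.5% to 55.7% in WT, and Rfc1, the large subunit, made up more, at 26.2% to 29.4% against 20% to 22.9% in WT.

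Rpa3, the small subunit of the single-strand binding complex RPA, had the largest rise of all members. It had 8.78, 9.99 and 7.83 CPM in cKO libraries, against 3.82, 6.05 and 5.49 CPM in WT libraries, and the groups did not overlap (log2 fold change 0.70, SE 0.15, limma adjusted p = 0.00289). With the GC and length correction its log2 fold change was 0.22 (limma adjusted p = 0.316). Of its 32-base words, 13.2% also occur in transcripts of other genes. Rpa1 and Rpa2, its partner subunits, had log2 fold changes of 0.12 and -0.21 and were not called, although without WT replicate 3 Rpa2 was called lower (-0.32, limma adjusted p = 0.0375). The ratio of Rpa3 to Rpa1 in RPKM, without the GC correction, was 0.534 to 0.664 in cKO libraries and 0.319 to 0.458 in WT libraries. Fen1, the flap nuclease of lagging-strand processing, had 1.05 to 1.88 CPM in cKO libraries and 1.31 to 1.70 CPM in WT libraries. This low level is uncertain, since 84.2% of its exonic bases lie under exons of Gm10143 and Tmem258 on the opposite strand.

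Of the 5 genes of nucleotide supply, 4 fell (15.9% lower over all genes tested). Rrm2, the small subunit of ribonucleotide reductase, had 27.6, 31.3 and 22.8 CPM in cKO libraries, against 44.8, 38.0 and 37.0 CPM in WT libraries (log2 fold change -0.54, SE 0.11, limma adjusted p = 0.00255). Tk1, the cytosolic thymidine kinase, had 2.94, 2.47 and 2.56 CPM in cKO libraries, against 5.55, 3.68 and 3.99 CPM in WT libraries (log2 fold change -0.55, SE 0.15, limma adjusted p = 0.0123). The groups of neither gene overlapped, and the call of Tk1 was lost without WT replicate 1 (limma adjusted p = 0.05 as rounded). Rrm1, the large reductase subunit, had 57.1, 67.2 and 51.5 CPM in cKO libraries, against 70.4, 70.6 and 72.1 CPM in WT libraries (log2 fold change -0.28, SE 0.09, limma adjusted p = 0.029). Tyms, thymidylate synthase, had 14.2, 16.9 and 14.5 CPM in cKO libraries, against 19.6, 16.8 and 19.8 CPM in WT libraries, with cKO replicate 2 just above WT replicate 2 (log2 fold change -0.29, SE 0.10, limma adjusted p = 0.0456). The calls of Rrm1 and Tyms were weak: each was lost with thinned reads, without the filter on low values, and without cKO replicate 1, cKO replicate 3, WT replicate 1 or WT replicate 3. Rrm1 was not called without WT replicate 2 either, and over these omissions its limma adjusted p was 0.0516 to 0.172, while that of Tyms was 0.119 to 0.153. Dut, which removes dUTP, missed the threshold (log2 fold change -0.30, limma adjusted p = 0.0551) and was called lower in 9 of the 18 alternative analyses. Per length, the ratio of Rrm2 to Rrm1 was 0.638 to 0.697 in cKO libraries and 0.74 to 0.918 in WT libraries.

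Uhrf1 had 37.1, 47.4 and 37.5 CPM in cKO libraries, against 59.7, 60.8 and 70.8 CPM in WT libraries. It stood at 63.8% of its WT mean with no overlap (log2 fold change -0.64, SE 0.10, limma adjusted p = 4.67e-04). Of its 32-base words, 23.7% occur in transcripts of other genes, among them the pseudogene Gm5648, which was listed at 0 CPM in every library. Dnmt1, the methyltransferase that Uhrf1 recruits, was lower as well, at 89.7 ± 12.2 CPM in cKO and 129 ± 11.5 CPM in WT (SD, n = 3 each; log2 fold change -0.52, limma adjusted p = 0.00131).

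The cKO libraries were not alike in these genes. Of the 48 members, 42 had their highest cKO value in cKO replicate 2, which lay above the cKO mean by a median of 0.15 log2 units over the members and 0.07 over all genes tested. The lowest cKO value fell in replicate 1 for 22 members and in replicate 3 for 21. Without cKO replicate 2, 27 members were called lower and 2 higher; without cKO replicate 3, 20 were called lower and 2 higher; without WT replicate 1, 21 were called lower and 2 higher. Over the 18 alternative analyses, 17 of the 29 calls were kept in each analysis that tested the gene, all of them lower in cKO: Mcm2, Mcm3, Mcm5, Mcm6, Mcm7, Mcm10, Cdc6, Cdc45, Pola2, Pold1, Pold2, Pole, Pcna, Rfc2, Lig1, Rrm2 and Uhrf1. None of the 4 higher calls was kept in all of them.

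Reads of 14 members could be shared with other genes, as 10% or more of their 32-base words also occur in transcripts of other genes. Beside Fen1, Gins2, Orc2, Uhrf1 and Rpa3, described above, they include Mcm7 (32.7% of words, most of them shared with the pseudogene Gm5487), Pcna (23%, shared with the pseudogene Pcna-ps2, which averaged 0.0331 CPM in cKO and 0.0289 CPM in WT), Rfc2 (19.1%), Rfc5 (19%), Rrm2 (12.2%) and Tyms (10.9%), whose values are to that extent uncertain. With all genes of this kind left out, 35 members were tested, of which 17 were called lower and 2 higher.

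The calls of all genes moved with GC content, and those of the members have to be read beside that. Among the 680 tested genes with a longest transcript under 40% GC, 370 were called higher and 14 lower, with a median log2 fold change of 0.30. Among the 2096 genes at 56% GC or more, 242 were called higher and 601 lower, with a median of -0.12. The 4 higher members had transcripts of 34.2% to 44.4% GC, and the 25 lower members had transcripts of 43.3% to 61.0% GC. ORC genes had a median of 41.5% GC and MCM2-7 genes one of 51.8%, beside 49.7% over all tested genes with a transcript. After the GC and length correction 31 members were called lower and none higher, the count at an unadjusted p under 0.05 being 1 higher. In that corrected fit 2324 of all genes were called lower and 1909 higher, against 1904 lower and 2499 higher as deposited.

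**Figure D4:**
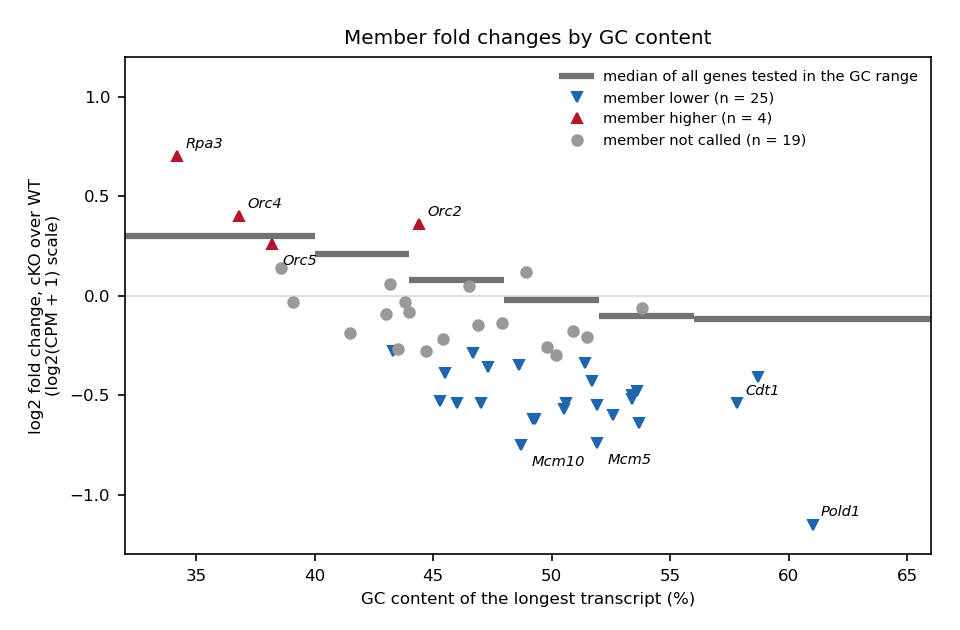
Log2 fold change, cKO over WT, of the 48 tested members (y axis) by the GC content of the longest transcript (x axis, percent), marked by call. Grey bars give the median of all tested genes in each GC range, 0.30 below 40% GC and -0.12 from 56% GC. The members called higher lie at 34.2% to 44.4% GC, and most of the others lie below the bar of their range.

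Other genes of the same processes were read from the same fit, in lists chosen by function with earlier results of these data known. Of 31 other replisome and origin factors, 8 fell and 6 rose (median log2 fold change -0.04), beside 15.9% lower and 20.9% higher over all genes tested. Ticrr, which helps load Cdc45, averaged 8.06 ± 1.26 CPM in cKO and 15.2 ± 1.75 CPM in WT (SD, n = 3 each; log2 fold change -0.84, limma adjusted p = 2.53e-04). Lrwd1, a partner of ORC, fell also (log2 fold change -0.55, limma adjusted p = 6.42e-04). Timeless, a fork protection factor, rose instead, to 69.6 ± 6.25 CPM in cKO against 34.8 ± 3.07 CPM in WT (SD, n = 3 each; log2 fold change 0.98, limma adjusted p = 4.91e-06), and Top2b, a topoisomerase also found in cells that do not divide, rose (log2 fold change 0.46, limma adjusted p = 5.72e-04).

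Of 19 other genes of nucleotide supply, 7 fell and 1 rose (median -0.15), beside 15.9% lower and 20.9% higher over all genes tested. No rise was called in this list with TMM or RLE scaling or when any library other than cKO replicate 2 was left out. Dctd, which makes dUMP from dCMP, averaged 11.7 ± 2.36 CPM in cKO and 30.6 ± 1.36 CPM in WT (SD, n = 3 each; log2 fold change -1.33, limma adjusted p = 4.21e-06). Atic and Cad, enzymes of purine and pyrimidine synthesis, fell by less (log2 fold changes -0.40 and -0.56, limma adjusted p = 0.00217 and 0.00537). Shmt2 also fell (log2 fold change -0.30, limma adjusted p = 0.00559). Of 11 genes of replication-coupled chromatin, 2 fell, near the share over all genes tested (15.9%), and 0 rose (20.9% over all genes tested). Those that fell were Dnmt1, as above, and Chaf1a, a subunit of the histone chaperone CAF-1 (log2 fold change -0.50, limma adjusted p = 0.0175). In this list 1 gene was called lower without cKO replicate 1, cKO replicate 3 or WT replicate 3, and 1 was called higher without cKO replicate 3 or WT replicate 1.

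Of the 16 genes of E2F factors and pocket proteins, 3 fell and 3 rose, near the shares over all genes tested (15.9% lower and 20.9% higher). Without cKO replicate 2, or with TMM or RLE scaling or the GC and length correction, 5 were called lower. Tfdp1, a partner of E2F in DNA binding, fell (log2 fold change -0.37, limma adjusted p = 0.00405), as did E2f3 (log2 fold change -0.31, limma adjusted p = 0.00874). Rb1, the pocket protein that holds E2F in check, rose (log2 fold change 0.55, limma adjusted p = 8.30e-04), and so did Tfdp2 (log2 fold change 0.81, limma adjusted p = 6.15e-05). Of 23 genes of G1/S and S phase control, 7 fell and 2 rose (median -0.22), with 11 lower after the GC and length correction. Those that rose were the cycle inhibitors Cdkn1a (log2 fold change 0.45, limma adjusted p = 0.0271) and Cdkn1b (0.26, limma adjusted p = 0.0209). The higher calls numbered 0 without cKO replicate 2 or WT replicate 2, and 1 without cKO replicate 3 or WT replicate 1. Those that fell included Ccne1 (log2 fold change -0.51, limma adjusted p = 0.00371), Cdk1 (-0.63, limma adjusted p = 5.13e-04), its partner Cks1b (-0.54, limma adjusted p = 0.00215), and Cdkn1c, an inhibitor of the cycle that is abundant in lens (1139 ± 40.4 CPM in cKO and 1618 ± 45.6 CPM in WT, SD, n = 3 each, limma adjusted p = 1.20e-04). Genes that act later in the cycle were mostly lower too: of 30 mitosis genes, 18 fell and 0 rose, with a median log2 fold change of -0.40. Their summed level was 655, 828 and 624 CPM in cKO libraries, against 964, 908 and 941 CPM in WT libraries. Among them Aurkb, Kif2c, Bub1b and Plk1 had log2 fold changes of -0.85, -0.65, -0.75 and -0.73 (limma adjusted p = 6.25e-05, 3.34e-04, 4.84e-04 and 4.98e-04).

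**Figure D5:**
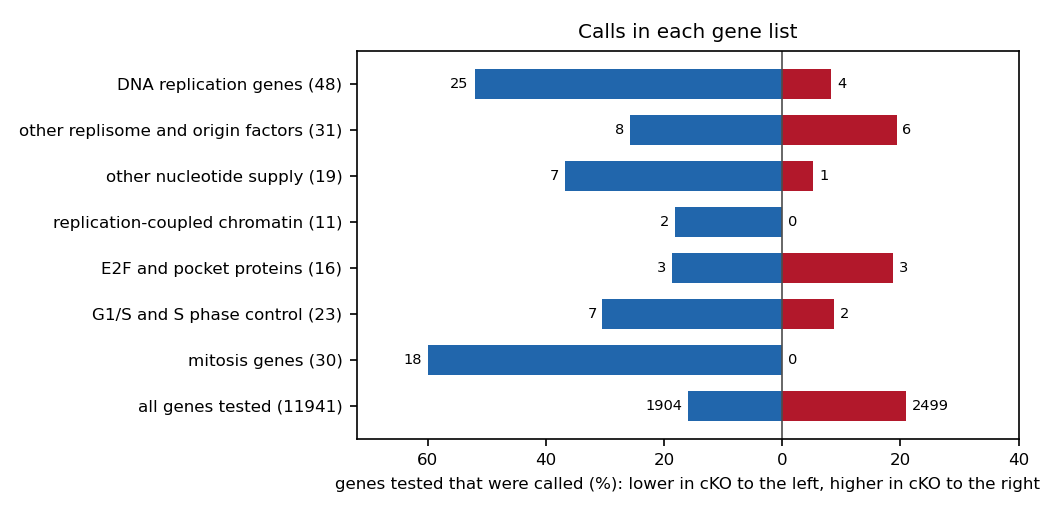
Percent of the tested genes of each list called lower in cKO (bars to the left) or higher in cKO (bars to the right), with the number of genes called at each bar and the number tested in parentheses. The replication genes (25 lower, 4 higher) and the mitosis genes (18 lower, 0 higher) lean left, and all genes tested (1904 lower, 2499 higher) do not.

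Markers of cells around the lens moved with the groups. Over all genes tested, 15.9% were called lower and 20.9% higher. Of the tested markers, 9 of 10 endothelial genes, 9 of 9 macrophage genes, 3 of 4 periocular mesenchyme genes and 3 of 4 pericyte genes were called higher in cKO, and none of these was called lower. Their summed levels were 208 to 251 CPM in cKO and 123 to 154 CPM in WT for endothelial markers, 25.0 to 35.1 CPM in cKO and 9.97 to 11.8 CPM in WT for macrophage markers, 31.6 to 48.8 CPM in cKO and 16.4 to 20.2 CPM in WT for mesenchyme markers, with Foxc2 listed at 0 throughout, and 108 to 124 CPM in cKO and 54.9 to 62.9 CPM in WT for pericyte markers. The macrophage genes were near the floor. Fcer1g (0.399 to 0.614 CPM) and Tyrobp (0.0998 to 0.694 CPM) reached 1 CPM in no WT library. C1qa, C1qb and Cd68 reached it in a single WT library. These macrophage genes passed the filter only through the cKO libraries, so the macrophage count favors higher calls. Of 4 tested erythroid markers 2 were called higher and 1 lower (94.8 to 170 CPM in cKO and 93.5 to 110 CPM in WT), with 0 lower without cKO replicate 2, WT replicate 1 or WT replicate 2 and 1 higher without cKO replicate 3 or WT replicate 3. The retina markers summed to 1.55 to 6.58 CPM in cKO and 0.499 to 6.49 CPM in WT, with no call in the 1 gene tested (1 higher without WT replicate 2). Of the lens epithelial markers, which belong to the cells that divide, 2 of 6 tested were called lower, Foxe3 (log2 fold change -0.37, limma adjusted p = 0.0424) and Pdgfra (-0.28, limma adjusted p = 0.021), and 1 higher, Cdh1 (0.46, limma adjusted p = 7.33e-04). The lower calls were not stable: they numbered 0 without cKO replicate 1, cKO replicate 3 or WT replicate 3, and 1 without WT replicate 1 or without the filter on low values. Of the 9 fiber markers tested, 2 were called lower and 1 higher, with 1 lower without cKO replicate 2, cKO replicate 3, WT replicate 2 or WT replicate 3. Beside the shares over all genes tested, so few epithelial and fiber calls are not read as a change of either marker set. The part of these other cells in the levels of the replication genes was not tested.

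Position along the genome was examined because the groups differed in strain background. Of the members, 6 lie on chromosome 8 with Itgb1, whose floxed allele the cKO lenses carry. Cdt1 and Gins2 lie 6.11 and 8.1 Mb from Itgb1, and Orc6, Gins3, Mcm5 and Gins4 lie 33 Mb or more away. Over chromosome 8 between 10 Mb before Itgb1 and the end, 81 genes were tested, of which 24 (29.6%) were called lower and 5 (6.17%) higher, with a median log2 fold change of -0.19. The 24 lower genes include Itgb1 itself, the targeted gene, and the members Cdt1 and Gins2. Around Pold1, 26 other tested genes lay within 500 kb on either side, of which 9 were called lower and 4 higher, with log2 fold changes of -0.65 to 0.95. Counted likewise, lower calls outnumbered higher calls around 13 of the 25 lower members, equalled them around 6 and were outnumbered around 6. Of single genes tested, 15.9% were called lower and 20.9% higher. That is a share of genes and not of windows, and windows around genes other than the called members were not counted. Around all 4 higher members the higher calls outnumbered the lower ones. Around Orc4 and Orc5 that meant 1 higher and 0 lower of 2 genes each, and around Rpa3 2 higher and 1 lower of 5. These counts are small: around Cdt1 they were 5 lower and 0 higher of 12 genes, around Pcna 0 lower and 2 higher of 6, around Mcm3 0 of 4 either way, and around Orc2 1 lower and 7 higher of 12. The part of strain-specific sequence in these calls was not tested.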

How the data were processed

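RNA was sequenced from 3 pools of cKO lenses and 3 pools of WT lenses, as 50-base single-end reads from poly-A RNA with the TruSeq RNA v2 kit, per the labels' protocols; this kit does not mark strand. The authors deposited CPM values per gene. Which aligner and counter they used is stated nowhere (not given in the sources used here). The tool edgeR and the build GRCm38 are named in the submitters' processing notes. The authors also deposited RPKM values, used here only for levels per length. The CPM values of each library are whole multiples of what 1 read is worth (100% of values within 0.02 of a whole read), so reads could be recovered, at 10023049 to 28095318 per library. Features with no Ensembl identifier, 0.192% to 0.208% of reads, were kept in.

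As the files hold CPM and not raw counts, the main test was limma 3.58.1 (trend and robust) in R 4.3.3 on log2(CPM + 1), over genes with at least 1 CPM in 3 or more libraries, with group as the sole term. On recovered reads, edgeR 4.0.16, DESeq2 1.42.0 and limma-voom served as alternatives, beside other scalings, filters and pseudocounts, a GC and length correction, thinned reads, a replicate block, genes without shared sequence, and leaving out each library. The limma script was also tested on simulated data. Replicates of a group differed by more than sampling noise (chi-square per degree of freedom 4.23 to 20.1), so each counted as 1. Positions and shared 32-base words came from GENCODE M21 (GRCm38), in which 37667 listed features were found by identifier, and promoter windows from RefSeq (GRCm38.p6).

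The members and the gene lists were chosen with earlier results of these data known. Values in every library are given for up to 4 members of each role with the smallest adjusted p, for members called higher and for those with a fold change nearest 0 (2 in all). Of each other list up to 4 genes with the smallest adjusted p are named, and the higher genes of G1/S and S phase control as well. Ratios, sums and shares are described without a test, and those of CPM or RPKM had no GC and length correction.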

Additional observations from a re-analysis of the deposited data

How the results depend on the processing

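The count of members called lower stayed within 1.5 times of the reported 25 in all 18 alternative analyses: it was 20 to 27 when single libraries were left out, and otherwise 21 to 31, apart from 17 when genes that share 10% or more of their 32-base words with others were left out. The count of members called higher, 4 as reported, was 0 with the GC and length correction, 2 without genes that share sequence, and 2 to 3 when single libraries were left out. The log2 fold change of Orc5 turned to -0.05 with the GC and length correction, and no other member called as reported changed sign in any analysis. Called lower in that corrected fit but not as reported were Orc6, Dbf4, Pola1, Pole2, Rfc4 and Dut; the log2 fold change of Dbf4 ran between -0.29 and 0.02. The median log2 fold change of the members ran between -0.25 and -0.38. The calls of all genes split into 1904 lower and 2499 higher as deposited, 2363 and 2413 with TMM scaling, 2375 and 2407 with RLE scaling, and 2324 and 1909 with the GC and length correction.

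The replicate numbers did not pair the libraries: the deviations of libraries with the same number correlated at 0.33, -0.03 and 0.15, and not every library correlated best with its own number. With the replicate number as a block, 26 members were called lower and 4 higher, and 2249 and 2916 of all genes. Members near 1 CPM (Orc1, Cdt1, Fen1, Gins2) are limited by depth, since 1 read was worth up to 0.0998 CPM.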
